A study of Mus musculus with 8 samples.

Results

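Guidance genes of the ephrin, semaphorin and plexin families were measured by RNA-seq in 8 immortalized mouse embryonic fibroblast (MEF) lines, 4 SLMAP3-/- and 4 wild-type (WT). Members were all genes whose symbol names an ephrin (Efna, Efnb), an Eph receptor (Epha, Ephb), a semaphorin of classes 3 to 7, a plexin or a neuropilin, which gave 53 of the 55401 genes in the count table. Of these, 46 passed the filter on low counts and were tested among 15461 genes. All lines came from B6C3F1 embryos at E14.5, from bodies without head and internal organs, and all carried SV40 large T antigen, the viral protein used for immortalization. The SLMAP3-/- lines derived from mice in which Cre driven by the CMV promoter had removed a floxed exon of Slmap. The study describes the immortalized mutant lines as lacking SLMAP2 as well. It ties that loss to immortalization, reporting almost no SLMAP2 in immortalized cells, and not to the genotype. Each line gave 1 library, so n = 4 lines per genotype, and the labels do not say which lines came from separate embryos or litters. If some did not, the p-values measure only the spread between these cultures.

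Eph receptors are receptor tyrosine kinases that bind ephrins on the surface of neighbouring cells. Ephrin-A ligands are held in the membrane by a lipid anchor and ephrin-B ligands by a transmembrane segment, and signals can run into both the receptor-bearing and the ligand-bearing cell. Semaphorins signal through plexins, whose cytoplasmic part acts on small GTPases, and most secreted class 3 semaphorins need a neuropilin as the ligand-binding co-receptor. Both systems are known for repelling growing axons and for shaping cell contact, migration and vessel growth outside the nervous system, fibroblasts included.

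The libraries held 49879059 to 63322486 estimated counts. Slmap, the targeted gene, was at 38.3 ± 4.94 CPM (counts scaled to library size; SD, n = 4) in SLMAP3-/- lines. The WT lines had 137 ± 8.60 CPM, and the difference was -1.84 on the log2 scale (SE 0.11, adjusted p = 0.00119, edgeR quasi-likelihood test). The fibroblast genes Col1a1 and Vim were high in all lines, at 4508 CPM or more and 2129 CPM or more, while Dcn went down to 0.323 CPM and Lum to 0.113 CPM in single lines. Of the 12 fibroblast genes only Col1a1 had an unadjusted p under 0.05, and it did not pass after adjustment. It was lower in SLMAP3-/- lines (log2 fold change -0.30, SE 0.13, unadjusted p = 0.0458, edgeR). Defining markers of endothelial cells (Pecam1, Cdh5, Emcn), neurons (Snap25, Dcx), glia (Sox10), macrophages (Ptprc, Adgre1) and skeletal muscle (Myod1) were at or near 0, with no line above 0.227 CPM. Other genes of these lists were not: the neuronal list also held Map2 at 58.7 to 251 CPM, Tubb3 at 8.90 to 22.2 CPM and Elavl3 at up to 1.53 CPM, and the macrophage list held Cd68 at 1.91 to 4.703 CPM. The summed neuronal list was at 72.3 to 133 CPM in SLMAP3-/- lines and 90.1 to 261 CPM in WT lines, and none of its genes had an unadjusted p under 0.05 (edgeR). The 5 epithelial genes summed to 1.47 to 4.62 CPM and 1.103 to 4.68 CPM, Krt18 reaching 3.72 CPM. Sums for the 4 macrophage genes were 2.51 to 5.48 CPM and 2.12 to 3.61 CPM, for the 4 glial genes 0.415 to 1.30 CPM and 0.613 to 1.25 CPM, and for the 4 muscle genes 0.134 to 0.386 CPM and 0.290 to 0.510 CPM. Y-linked genes were high in 2 of 8 lines, SLMAP3-/- replicate 2 and WT replicate 3. In bulk RNA, fewer cells of a type and less RNA per cell cannot be told apart.

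A broad set of ligands and receptors was expressed, and none of the 46 tested genes passed the adjusted test between genotypes. By the edgeR quasi-likelihood test, 0 of 46 tested guidance genes had an adjusted p under 0.05, against 1 of 15461 tested genes, Slmap itself (0.00647%). At an unadjusted p under 0.05 the count was 3 of 46 guidance genes (6.52%) against 280 of all genes (1.81%), and DESeq2 and limma-voom each also gave 0 adjusted and 3 unadjusted calls. Those genes were Sema3d and Sema3a, lower in SLMAP3-/- lines, and Plxna2, higher. In 0 of 46 genes did the 4 SLMAP3-/- lines all lie above or all below the 4 WT lines, a pattern seen in 194 of all genes (1.25%). Direction was mixed, with 20 guidance genes higher and 26 lower in SLMAP3-/- lines, a median log2 fold change of -0.03 and a median over all genes of 0.00.

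The promoters of the 3 genes with an unadjusted p under 0.05 are shown because Sema3d and Sema3a are neighbours on chromosome 5 and both were lower in SLMAP3-/- lines at that threshold. Each sequence covers the 250 bases before the RefSeq transcription start (build GRCm38.p6), in the direction of the gene, and capitals mark any match, on either strand, to the core motif of TEAD factors (GGAATG), the motif core of cyclic AMP response elements (TGACG), the box bound by Sp1 (GGGCGG) or the box bound by TBP (TATAAA).
Sema3d (chr5:12382916-12383165, + strand): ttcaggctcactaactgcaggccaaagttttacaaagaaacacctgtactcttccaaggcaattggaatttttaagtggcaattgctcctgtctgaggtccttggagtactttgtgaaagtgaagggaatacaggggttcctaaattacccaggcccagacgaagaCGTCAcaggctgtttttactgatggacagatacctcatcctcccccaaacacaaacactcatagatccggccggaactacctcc
Sema3a (chr5:13396534-13396783, + strand): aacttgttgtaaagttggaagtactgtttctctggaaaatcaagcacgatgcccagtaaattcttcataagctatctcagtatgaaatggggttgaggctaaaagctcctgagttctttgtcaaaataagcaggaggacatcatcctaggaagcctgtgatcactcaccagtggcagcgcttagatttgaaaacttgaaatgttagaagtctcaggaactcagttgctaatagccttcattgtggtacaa
Plxna2 (chr1:194619579-194619828, + strand): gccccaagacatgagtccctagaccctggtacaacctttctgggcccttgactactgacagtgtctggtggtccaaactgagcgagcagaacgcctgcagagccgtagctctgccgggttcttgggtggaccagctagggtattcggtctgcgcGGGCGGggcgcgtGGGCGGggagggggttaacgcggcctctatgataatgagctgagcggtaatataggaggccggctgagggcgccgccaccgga
Among the 32851 RefSeq promoter windows of this length, GGAATG occurred in 12.6%, TGACG in 17.8%, GGGCGG in 32.7% and TATAAA in 12.4%. The Sema3d window held 1 TGACG match, on the opposite strand, and no other motif. The Sema3a window held none of the 4 motifs, and the Plxna2 window held 2 GGGCGG matches, starting 96 and 83 bases before the start. CG pairs numbered 4 in the Sema3d window, 2 in that of Sema3a and 18 in that of Plxna2, where the median window had 6. The RefSeq start of Sema3a lies inside the longer GENCODE gene (chr5:13125414-13602565), and the Plxna2 window lies wholly inside its GENCODE gene (chr1:194618218-194816869). For both, the window therefore does not cover the bases before the GENCODE gene start. The GENCODE gene of Sema3d begins downstream of its RefSeq start, at position 12383385 of chromosome 5. Promoter entries were found for 47 of the 53 genes.

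Levels were compared between genes as CPM per kb, dividing by the median length of each gene's coding transcripts. On this scale Sema3f, a secreted semaphorin that binds Nrp2, was highest at 115 CPM per kb, followed by the semaphorin receptors Plxnb2 at 73.4 and Nrp2 at 55.3 CPM per kb. With the longest transcript in place of the median, 16 of the 46 tested genes were lower by more than 1.5 times. Sema3f was then at 30.6 CPM per kb and ranked after Plxnb2 and Nrp2. Plxnb1 went from 40.0 to 3.54 CPM per kb, Efnb2 from 42.2 to 24.0, Sema3a from 32.6 to 12.6 and Ephb2 from 27.5 to 10.7.

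**Figure D1:**
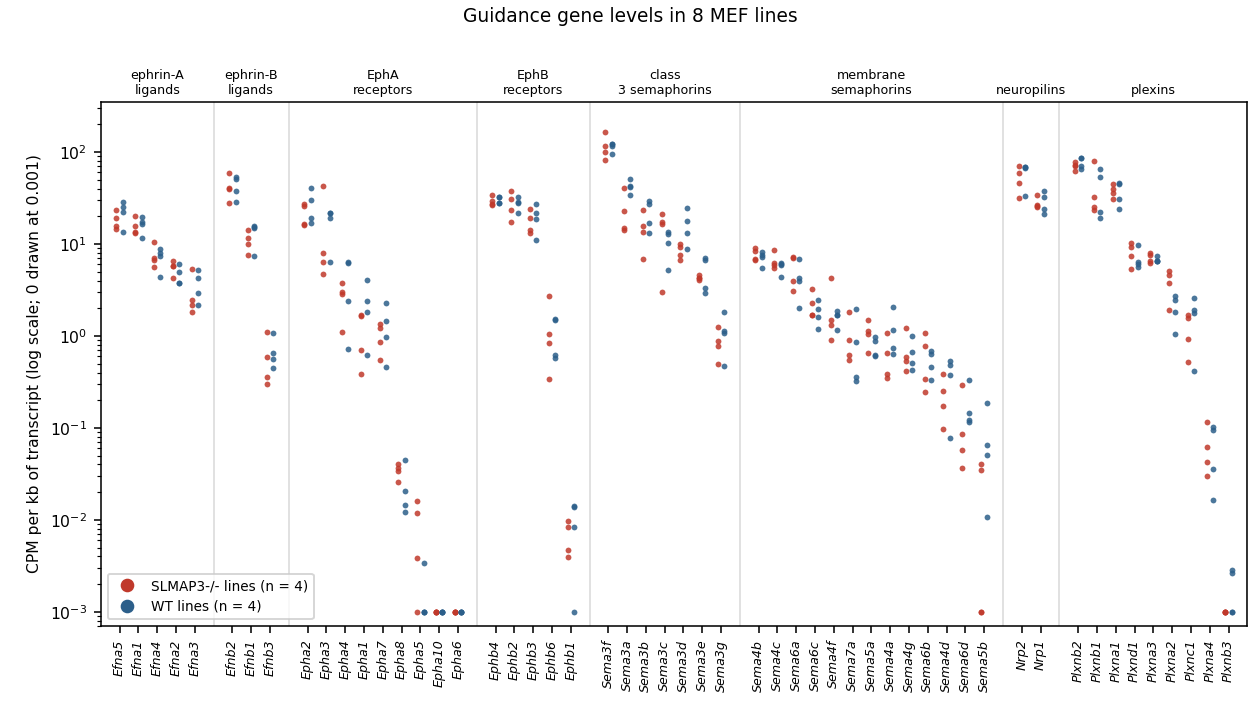
Level of each of the 53 guidance genes (CPM per kb of transcript, log axis, values of 0 drawn at 0.001) in the 4 SLMAP3-/- lines (red) and 4 WT lines (blue), by family. Genotypes overlap for the genes at high level, and Epha10 and Epha6 sit at 0 in all lines.

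Among the ligands, all 5 ephrin-A and all 3 ephrin-B genes were tested. Efnb2, a transmembrane ephrin best known from arteries, was highest at 42.2 CPM per kb, with 111, 109, 76.3 and 161 CPM in SLMAP3-/- replicates 1 to 4 and 138, 102, 78.7 and 144 CPM in WT replicates 1 to 4. The ranges of both genotypes overlapped, and the log2 fold change was -0.01 (SE 0.26, exact permutation p = 0.971). Efna5 led the ephrin-A genes at 20.2 CPM per kb, with 55.0, 34.0, 44.6 and 36.8 CPM in SLMAP3-/- lines and 31.6, 51.7, 66.2 and 58.3 CPM in WT lines. The estimate for Efna5 was -0.29 on the log2 scale (SE 0.24, exact permutation p = 0.4). With the longest transcript Efna1, at 14.48 CPM per kb, stood above Efna5, at 11.7. Fold changes of the other ephrins ran from -0.31 to 0.26 on the log2 scale.

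Eph receptors were uneven in level. Of 9 EphA genes 5 were tested, and of 5 EphB genes 4. Ephb4, the receptor that pairs with Efnb2 in vessels, was among the steadiest guidance genes, at 119, 111, 138 and 106 CPM in SLMAP3-/- lines and 113, 111, 131 and 129 CPM in WT lines (29.7 CPM per kb, log2 fold change -0.03, SE 0.11). Epha2, a receptor common outside the nervous system, led the EphA genes at 24.1 CPM per kb, with 64.8, 106, 63.2 and 102 CPM in SLMAP3-/- lines and 160, 117, 66.3 and 75.5 CPM in WT lines. WT replicate 1 was the highest line and the genotypes overlapped (log2 fold change -0.32, SE 0.31, exact permutation p = 0.429). All 5 tested EphA genes had negative fold changes with all lines in, from -1.002 for Epha1 to -0.17 for Epha3. None had an unadjusted p under 0.05 (edgeR). The fold change of Epha3 turned sign without single lines. That of Epha7 was not followed without single lines. Its WT lines ran from 2.16 to 10.95 CPM, beyond the 2.61 to 6.46 CPM of SLMAP3-/- lines at both ends.

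Epha3, Epha4 and Epha1 had the widest spread of all guidance genes between lines of a genotype. Epha3 was at 21.1, 17.0, 113 and 12.5 CPM in SLMAP3-/- lines and 17.0, 57.6, 50.8 and 58.3 CPM in WT lines. SLMAP3-/- replicate 3 exceeded every other line while the other 3 mutant lines sat beside the lowest WT line, and the log2 fold change went from -0.17 to -1.44 without that line. It was above 0 without any of the other 3 mutant lines, at 0.05 without replicate 1, 0.10 without replicate 2 and 0.13 without replicate 4. Epha4, a receptor for ligands of both ephrin classes, was at 6.27, 2.32, 7.89 and 5.96 CPM in SLMAP3-/- lines and 1.52, 5.07, 13.0 and 13.5 CPM in WT lines. The lowest and the highest line of Epha4 were both WT, and the log2 fold change was -0.56 (SE 0.64, exact permutation p = 0.771). Epha1 was at 2.18, 5.24, 5.16 and 1.19 CPM in SLMAP3-/- lines and 7.50, 1.92, 12.6 and 5.61 CPM in WT lines, with a log2 fold change of -1.002 (SE 0.63, exact permutation p = 0.257). This was the farthest from 0 of the 46 genes with all lines in, but it was -0.55 without WT replicate 3, nearer to 0 than Sema3d (-0.90) and Sema3a (-0.86) in the same fit. Exons of Epha1 overlap those of Zyx on the opposite strand, and Zyx was at 228 to 455 CPM. The libraries were made with a stranded kit. Whether the counting used strand is not given in the sources used here, so the Epha1 values are uncertain. Exons of Efna3, Efna4, Ephb4, Plxna1, Plxna4, Plxnb1 and Sema4c also overlap a gene on the opposite strand, which for Ephb4 is Zan, at 0.0967 to 1.30 CPM.

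Class 3 semaphorins are secreted, and all 7 were tested. Sema3f was at 148, 91.5, 105 and 74.4 CPM in SLMAP3-/- lines and 110, 110, 106 and 86.7 CPM in WT lines (log2 fold change 0.03, SE 0.20). Sema3d, a semaphorin of heart and vessel patterning, was at 47.7, 35.8, 43.7 and 31.9 CPM in SLMAP3-/- lines and 42.3, 62.7, 85.5 and 118 CPM in WT lines. The 3 highest lines were WT, and WT replicate 1 fell within the mutant range. The log2 fold change was -0.95 (SE 0.29, unadjusted p = 0.0105 and adjusted p = 1, edgeR; two-sided exact permutation p = 0.0857), and the unadjusted p stayed under 0.05 without any single line. Sema3a, the prototype growth cone repellent that binds Nrp1, was at 92.0, 52.4, 33.9 and 32.7 CPM in SLMAP3-/- lines and 76.9, 95.1, 97.7 and 115 CPM in WT lines. SLMAP3-/- replicate 1 lay inside the WT range and the other 3 mutant lines below it. The log2 fold change was -0.87 (SE 0.32, unadjusted p = 0.0265 and adjusted p = 1, edgeR; two-sided exact permutation p = 0.0571). Without SLMAP3-/- replicate 2, replicate 3 or replicate 4, or WT replicate 4, Sema3a was no longer among the genes with an unadjusted p under 0.05. With 4 lines against 4, the smallest permutation p is 0.0286. Sema3c had 53.9, 66.5, 9.32 and 51.2 CPM in SLMAP3-/- lines and 16.4, 40.4, 32.0 and 42.4 CPM in WT lines. SLMAP3-/- replicate 3 was the lowest line and the other 3 mutant lines the highest, and the log2 fold change of 0.46 (SE 0.53) was 0.80 without that line.

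**Figure D2:**
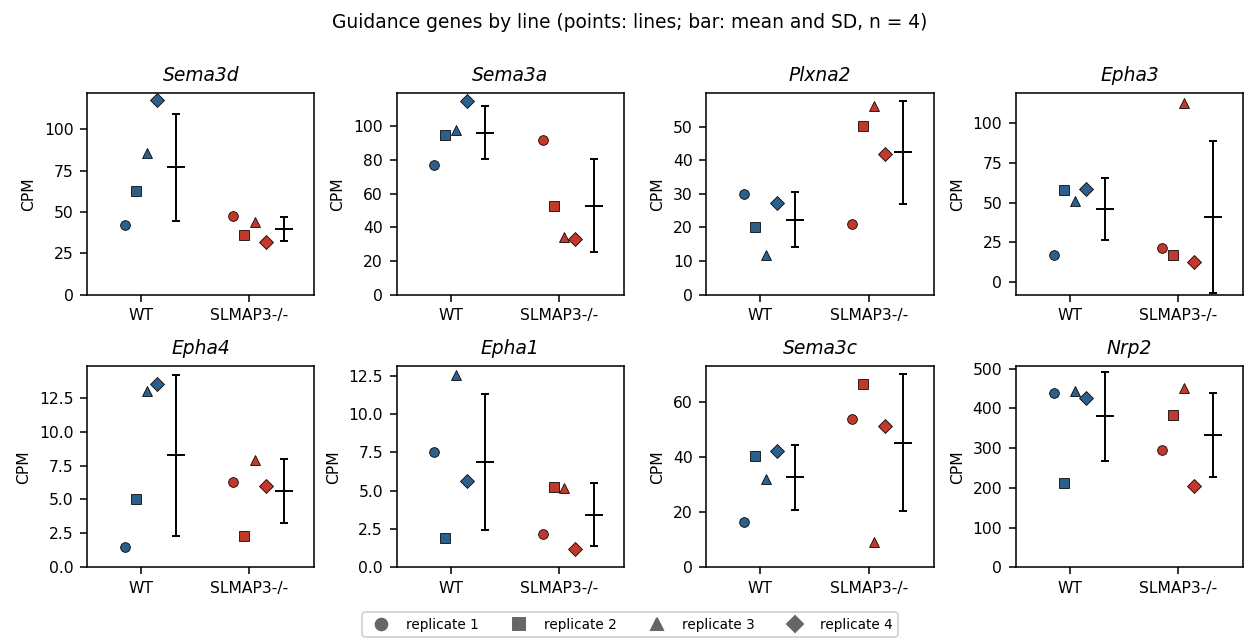
CPM of 8 guidance genes in each WT (blue) and SLMAP3-/- (red) line, the marker shape giving the replicate number and the bar the mean and SD (n = 4). Genotypes overlap in every panel, and SLMAP3-/- replicate 3 stands apart for Epha3 at 113 CPM.

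Sema3d and Sema3a lie 536.5 kb apart on chromosome 5, in the same direction. Over the 8 lines their log2 CPM values had a Pearson r of 0.77 (exact permutation p = 0.0259, 0.0862 adjusted over 10 pairs) and a Spearman rho of 0.93 (exact permutation p = 0.0022, 0.0223 adjusted). Both genes were named for a lower level in SLMAP3-/- lines, so these values carry that shared difference. Without the 2 lines farthest from the median of Sema3d the r was 0.73, and after subtracting each genotype's mean it was 0.52. Sema3e, the next semaphorin gene along the chromosome, lay 422.7 kb from Sema3a and had an r of 0.11 with it (exact permutation p = 0.81). The 10 pairs are all tested guidance genes within 1 Mb of each other, which also include Sema4a with Efna1, Efna3 and Efna4 on chromosome 3, Ephb6 with Epha1 on chromosome 6 and Sema3b with Sema3f on chromosome 9. All 10 had a positive r, as did 60.2% of all 1035 pairs of guidance genes, whose median r was 0.14. Without the 2 lines farthest from the median of the first-named gene, r was -0.14 for Efna3 with Efna4. It was then -0.05 for Sema3b with Sema3f and -0.03 for Sema3a with Sema3e, and positive for the other neighbouring pairs. The chromosome 3 pairs share genes with each other, so the 10 are not independent. By Spearman, Sema3a with Sema3e had a rho of -0.02, and the other neighbouring pairs had a positive rho. None of the 1035 pairs had an adjusted permutation p under 0.05 by Pearson or Spearman, the lowest Pearson value being 0.103 for Ephb3 and Sema3g.

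**Figure D3:**
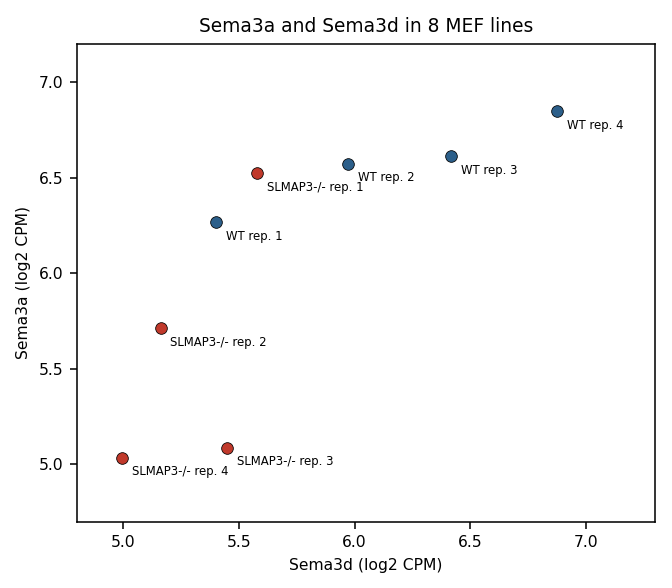
Sema3a against Sema3d (log2 CPM) in the 4 SLMAP3-/- lines (red) and 4 WT lines (blue). WT replicate 4 is highest on both axes and SLMAP3-/- replicate 4 lowest, and the mutant lines reach into the WT range.

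Membrane-bound semaphorins of classes 4 to 7 were expressed at lower levels, and 12 of 13 were tested, 9 with a higher and 3 with a lower estimate in SLMAP3-/- lines. Sema4b was highest at 7.44 CPM per kb, with 26.2, 32.2, 35.2 and 25.7 CPM in SLMAP3-/- lines and 29.4, 21.3, 31.8 and 27.6 CPM in WT lines (log2 fold change 0.11, SE 0.16). Its lines spanned a range of 1.65-fold, the narrowest of the class. Sema4a had 1.21, 0.720, 1.99 and 0.652 CPM in SLMAP3-/- lines and 1.18, 1.39, 3.90 and 2.16 CPM in WT lines (log2 fold change -0.91, SE 0.50, exact permutation p = 0.143). The Sema4a estimate was -0.46 without WT replicate 3 and -1.32 without SLMAP3-/- replicate 3. Sema4d, a ligand of Plxnb1, had 0.433, 0.760, 1.72 and 1.13 CPM in SLMAP3-/- lines and 2.16, 0.348, 2.35 and 1.68 CPM in WT lines. Both low genes overlapped between genotypes. Sema5a had the largest positive estimate of the class, 0.49 (SE 0.27, exact permutation p = 0.143).

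Of the receptors for semaphorins, both neuropilins and 8 of 9 plexins were tested. Nrp2, the co-receptor for Sema3f, was at 296, 382, 450 and 205 CPM in SLMAP3-/- lines and 439, 213, 443 and 426 CPM in WT lines. WT replicate 2 and SLMAP3-/- replicate 4 were low by a similar amount, and the log2 fold change was -0.19 (SE 0.30). Nrp1 ranged from 77.0 to 135 CPM (log2 fold change -0.04, SE 0.19). Plxnb2, a receptor for class 4 semaphorins, had the highest CPM of the 53 genes, at 449, 397, 506 and 465 in SLMAP3-/- lines and 454, 418, 548 and 549 in WT lines (log2 fold change -0.12, SE 0.12). Plxna2, which transduces class 3 and class 6 semaphorin signals, was at 21.02, 50.3, 56.1 and 41.8 CPM in SLMAP3-/- lines and 30.0, 20.0, 11.7 and 27.4 CPM in WT lines. The other 3 mutant lines lay above all WT lines, and SLMAP3-/- replicate 1 within them. The log2 fold change was 0.92 (SE 0.36, unadjusted p = 0.0317 and adjusted p = 1, edgeR; two-sided exact permutation p = 0.0857). Without SLMAP3-/- replicate 2, 3 or 4, or WT replicate 2 or 3, Plxna2 was no longer among the genes with an unadjusted p under 0.05.

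**Figure D4:**
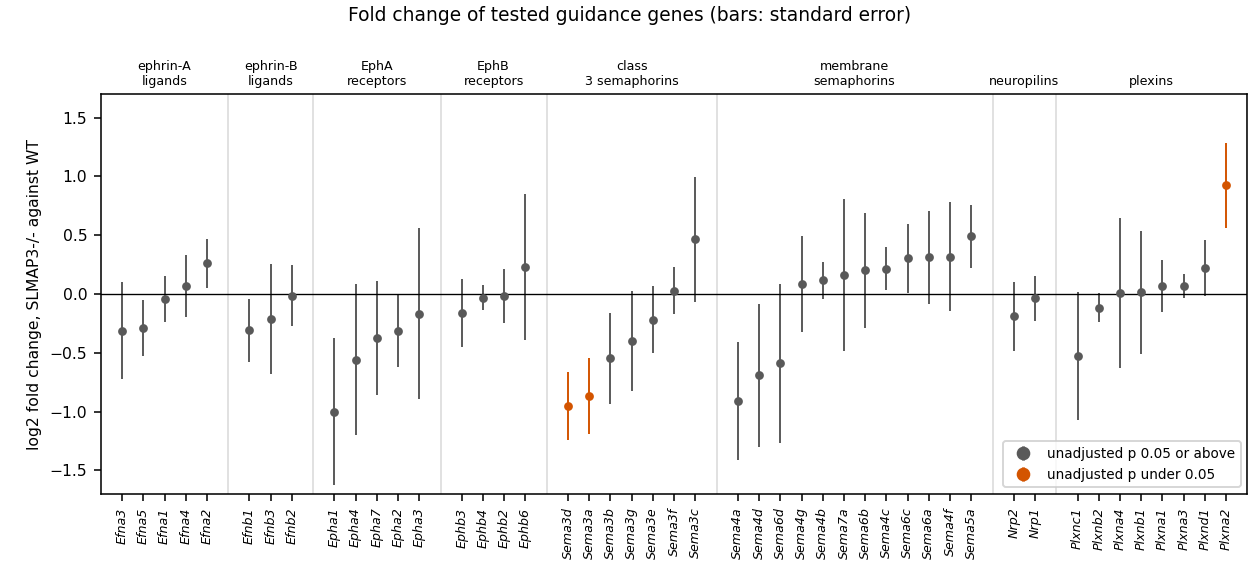
Log2 fold change of SLMAP3-/- against WT lines for the 46 tested guidance genes by family, with the standard error (edgeR). Orange marks the 3 genes with an unadjusted p under 0.05, Sema3d, Sema3a and Plxna2, none of which passed after adjustment.

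Guidance genes varied more between lines of a genotype than tested genes in general. The median within-genotype SD of log2 CPM was 0.51 over the 46 genes and 0.28 over all 15461, and 41 of 46 (89.1%) lay above the median of all genes. Among genes with a mean of 5.24 to 47.7 CPM, the middle range of the guidance genes, the median SD was 0.48 for 22 guidance genes and 0.23 for 5718 genes in all. The widest were Epha4 and Epha3 (SD 1.17 each), Epha1 (1.08), Sema4d (1.04) and Sema3c (1.03), and the steadiest were Plxna3 (0.13), Ephb4 (0.15) and Plxnb2 (0.17). By family the median ran from 0.40 in ephrin-A ligands to 1.08 in EphA receptors. SLMAP3-/- replicate 3 was the highest line for 15 of 46 guidance genes (32.6%, against 13.0% of all tested genes), and SLMAP3-/- replicate 4 the lowest for 13 (28.3%, against 16.6%). These are descriptions, with no test.

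**Figure D5:**
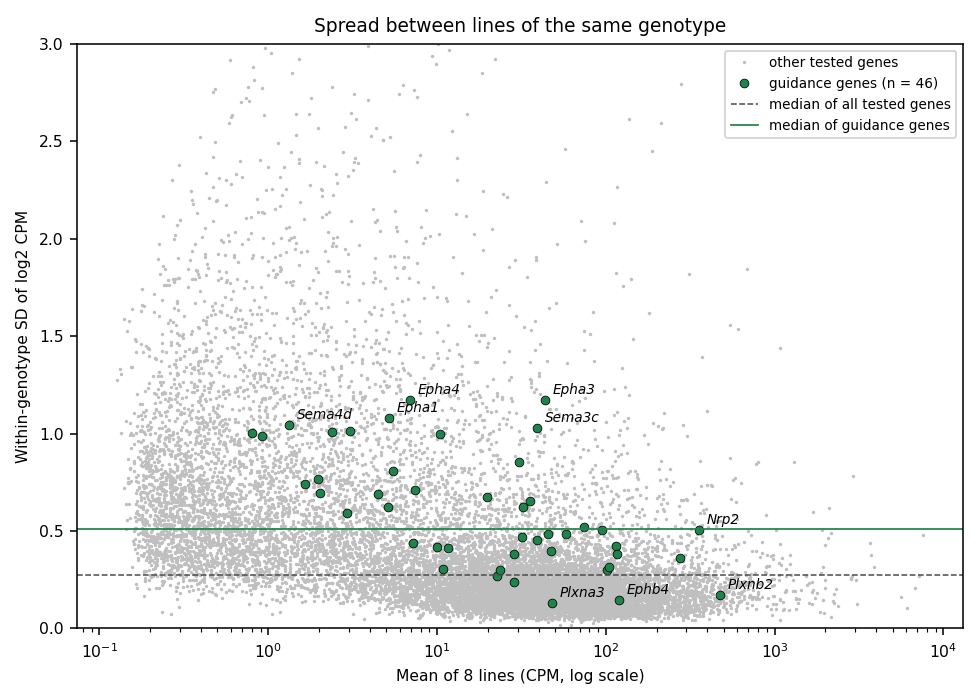
Within-genotype SD of log2 CPM against mean CPM (log axis) for the 46 tested guidance genes (green) and all other tested genes (grey), with the medians as lines. Most guidance genes sit above the dashed median of all genes, and 47 genes with an SD above 3 are outside the plot.

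The other 7 guidance genes were not tested. Epha6 and Epha10 had no count in any line. Epha5, Ephb1 and Plxnb3 had at most 5, 3 and 1 counts in a line, and Epha8 had 3 to 13. Sema5b had up to 49 counts, in WT replicate 4, and none in 2 mutant lines.

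Other genes of these signalling pathways were also compared. Of 42 genes that take part in Eph receptor and plexin signalling, such as Rac1, Rhoa, Farp1 and the collapsin response mediators, 41 were tested. Of these, 0 had an adjusted p under 0.05 (edgeR). At an unadjusted p under 0.05 there was 1 of 41 (2.44%, against 1.81% of all tested genes), Cdk5, a kinase of the Sema3a response, with a log2 fold change of 0.22 (SE 0.10, exact permutation p = 0.0286, the smallest possible). The list had 21 genes higher and 20 lower, with a median of 0.02. Of 25 genes of other guidance systems (slits, netrins, their receptors and FLRT proteins) 17 were tested, and 0 had an adjusted or unadjusted p under 0.05 (edgeR). Their estimates were higher in 8 and lower in 9, with a median of -0.05. Farthest from 0 among them was Flrt2, at -1.39 (SE 0.64, exact permutation p = 0.0571). Of the other cell types' markers, the 5 endothelial genes summed to 16.6 to 40.5 CPM in SLMAP3-/- lines and 9.47 to 27.5 CPM in WT lines, almost all from Kdr and Tek. Tek had a log2 fold change of 1.41 (SE 0.55, unadjusted p = 0.032 and adjusted p = 1, edgeR; exact permutation p = 0.143) while Pecam1, Cdh5 and Emcn were at or near 0. The part of any of these in the guidance gene values was not tested.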

How the data were processed

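RNA-seq libraries (Illumina stranded mRNA kit) were made from 4 SLMAP3-/- and 4 WT immortalized MEF lines. The authors quantified reads with Salmon on the GENCODE M25 transcriptome (GRCm38). They deposited estimated counts per gene, labelled as length-scaled, which were rounded to whole numbers for testing. A second deposited table holds the authors' DESeq2 fold changes and p-values and was not used. Library totals are given in the report. Counts were filtered (filterByExpr, minimum count 10), TMM-normalized and tested with edgeR 4.0.16 (quasi-likelihood, genotype only, Benjamini-Hochberg over all 15461 genes) in R 4.3.3. CPM used TMM library sizes; log2 CPM used a prior count of 2. Spread was the pooled within-genotype SD. Lengths and positions came from GENCODE M21. Single genes and correlations used exact two-sided permutation tests (scipy 1.17.1). DESeq2 1.42.0, limma-voom 3.58.1, other size factors, other filters, a Y-linked covariate, the replicate number as a block and leaving out each line were the alternatives. Scripts were tested on simulated data. Genes named with full values were the highest of each family, those with an unadjusted p under 0.05, and the 5 with the widest spread and the 5 with the largest fold change; others were named after their values were seen. The genes, lists and tests were chosen with earlier results of these data known. At these totals the 4 lines per genotype, rather than counting error, were the unit of every test.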

Additional observations from a re-analysis of the deposited data

Results flagged for a closer look

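In the named genes, 2 of 34 groups of 4 lines held a line far from the other 3 by Dixon's ratio of gap to range. The limit passes about 1 in 20 groups by chance, but several of these genes were chosen for wide spread, so that rate does not apply to them. For Nrp2, WT replicate 2 was the low line, at 213 CPM against 426 to 443 CPM in the other WT lines (ratio 0.926). For Epha3, SLMAP3-/- replicate 3 was the high line, at 113 CPM against 12.5 to 21.1 CPM (ratio 0.914). The cause of either was not tested.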

How the results depend on the processing

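The count of guidance genes with an adjusted p under 0.05 was 0 under all 15 alternatives, the lowest adjusted p being 0.786 with no filter on low counts. The 3 genes with an unadjusted p under 0.05 were the same under DESeq2, limma-voom, other size factors, both other filters and the Y-linked covariate. Leaving out 1 line at a time gave 1 to 5 such genes: 1 without SLMAP3-/- replicate 2 (Sema3d; 1.61% of all genes), 5 without SLMAP3-/- replicate 3 (Sema3d, Epha3, Sema3c, Sema4a, Sema6d; 2.56%) and 5 without WT replicate 1 (Sema3d, Sema3a, Plxna2, Efna5, Efnb1; 3.47%, 546 genes against 280 with all lines). Guidance genes with non-overlapping lines numbered 0 to 5 when a line was left out, with fewer lines to separate. The share of all tested genes was then 2.10% to 4.42%, and both were highest without WT replicate 1. Of the 17 genes given with full values, the fold changes of Efnb2, Epha3, Ephb4 and Sema3f turned sign without some line, 10 others moved by over 1.5 times, and those of Sema3d, Sema3a and Plxna2 did neither. Those 3 were named for an unadjusted p under 0.05 in these same lines, so their steadiness is no separate support. With all lines in, Efnb2, Ephb4 and Sema3f were at -0.01, -0.03 and 0.03, where small shifts turn the sign. Without SLMAP3-/- replicate 3 the median log2 fold change of the guidance genes was -0.19 instead of -0.03. Median spread stayed between 0.506 and 0.568 without single lines. With the replicate number as a block, 3 guidance genes had an unadjusted p under 0.05 (Sema3d, Sema3a and Sema5a) and 0 genes of all had an adjusted p under 0.05, Slmap included. To look for pairs, each genotype's mean was subtracted from the log2 CPM of every tested gene. On these deviations, lines with the same replicate number had correlations of -0.16, 0.06, 0.19 and 0.00. Only number 3 was closest to its own partner. The replicate numbers were therefore not treated as pairs. The line names share another number, MEF10A for SLMAP3-/- replicate 3 and MEF10B for WT replicate 4. What that number stands for is not given, and pairing by it was not tested. DESeq2 called 11 genes of all, none of them guidance genes. Requiring 1 CPM in 4 lines left 44 expressed guidance genes in place of 46.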
